A study of Mus musculus with 6 samples.

Results

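The genes described here are 10 members of the JAK-STAT pathway and of the genes that cytokines induce through it, measured in thymic lymphomas of Ikaros-deficient mice. They were taken by gene symbol, and every probe set of the array with exactly 1 of these symbols was kept, which gave 21 probe sets of the 45037 that are not controls. Jak1 and Jak3 are the kinases, Stat3, Stat5a and Stat5b the transcription factors, Cish, Socs1 and Socs3 the feedback inhibitors, and Pim1 and Bcl6 the induced genes. In this pathway a cytokine brings receptor chains together, the kinases bound to them phosphorylate the receptor and the STAT proteins, and the STATs enter the nucleus as dimers and bind DNA. Among the genes they switch on are the inhibitors of the CIS and SOCS family, which close a negative feedback loop. In the thymus, interleukin-7 signals through Jak1, Jak3 and Stat5, which support the survival and growth of immature T cells.

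The 6 tumours came from 6 mice, with 1 array per tumour. All mice were IkL/L, that is, homozygous for a hypomorphic allele of Ikzf1, which encodes the lymphoid transcription factor Ikaros, and all carried CD4-Cre, a transgene that drives Cre recombinase in developing thymocytes. The 3 control mice were Notch1+/+ and 18 to 20 weeks old. The other 3 were Notch1f/f and 8 to 10 weeks old, and their floxed alleles can lose the Notch1 promoter and exon 1 in cells that express Cre. Age and genotype changed together and cannot be told apart. The tumour cells were freed from the tissue without a sorting step given in the labels, so host cells of the thymus can be present.

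The values are MAS5 signal intensities on a linear scale, with no unit. Their precision is limited by the 3 arrays per group. Differences are Notch1f/f minus Notch1+/+ after 16 was added to each intensity and log2 taken. This shrinks the change of dim probe sets. A fold is 2 to the power of the difference. The test was limma with Benjamini-Hochberg adjustment over 27022 probe sets, at an adjusted p of 0.05. Only 5 probe sets passed it, or 0.0185%, and none belonged to the 10 genes.

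A few facts of the whole series touch the values below. Both Notch1 probe sets gave signal in every tumour, at 1346.2 to 2211.5 in the Notch1f/f and 567.9 to 1792.5 in the Notch1+/+ tumours for one of them. Such arrays read the 3' part of transcripts, and where the Notch1 probes lie is not known here, so this signal is no check of the deletion. Of 10 T cell markers, 8 had a probe set, and none of the 8 was under 30 on every array. Their summed intensity was 16892.9 to 20610.2 in the Notch1f/f and 13303.7 to 16298.1 in the Notch1+/+ tumours. Of the 8, only 1, Cd3e, was higher in all Notch1f/f tumours, and 0 were lower in all. Over their 13 tested probe sets the median difference was 0.07, with 7 above 0 and 6 below. The summed intensity of 10 macrophage markers was also higher in all Notch1f/f tumours, at 1432 to 2837.5 against 267.2 to 942.3. Of these 10 genes, 5 were higher in all Notch1f/f tumours and 1, Marco, was lower in all, at 0.5 to 0.6 there, and Vsig4 was under 30 throughout. The 6 B cell markers overlapped in sum, at 67.4 to 286 against 43.5 to 201.5. Of them, 2, Cd79a and Cd79b, were higher in all Notch1f/f tumours, and Ms4a1, Pax5 and Ebf1 were under 30 on every array. The 16 immediate-early and heat shock genes, which tissue handling can induce and of which Junb is also on the wider pathway list below, summed to 2908.4 to 8656.6 in the Notch1f/f and 1598 to 2630.7 in the Notch1+/+ tumours, with Notch1f/f tumour 3 alone above 3428. The 3' control probe set for 18S ribosomal RNA had 249.5 to 318.9 against 64.8 to 125.1. The ratio of the 3' to the 5' control probe set of beta-actin, a sign of RNA integrity, was 2.23 in Notch1+/+ tumour 1 and 1.35 to 1.64 in the other 5. The part of any of these in the results below was not tested, and in such bulk samples fewer cells of a type and less RNA per cell cannot be told apart.

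All 21 probe sets passed the filter on dim signal, so every gene was tested. None passed the threshold in either direction, and the lowest adjusted p in limma was 0.262. Without adjustment, 6 of the 21 probe sets had a p under 0.05, a share of 28.6%, against 13.5% of all tested probe sets. The groups did not overlap in the same number, 6 of 21, against 18.6% of all tested. Of these 6, Pim1 on both of its probe sets, Bcl6 on one and Jak1 on one were higher in the Notch1f/f tumours. That is 19.0% of the 21, against 8.13% of all tested probe sets. Stat5a and Stat5b were lower, each on 1 of its 2 probe sets, or 9.52% of the 21, against 10.4% of all tested. The median difference over the 21 was 0.30, and over all tested probe sets it was -0.04. Since the 10 genes were chosen with results of these tumours known, these counts and the median are a description only.

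**Figure D1:**
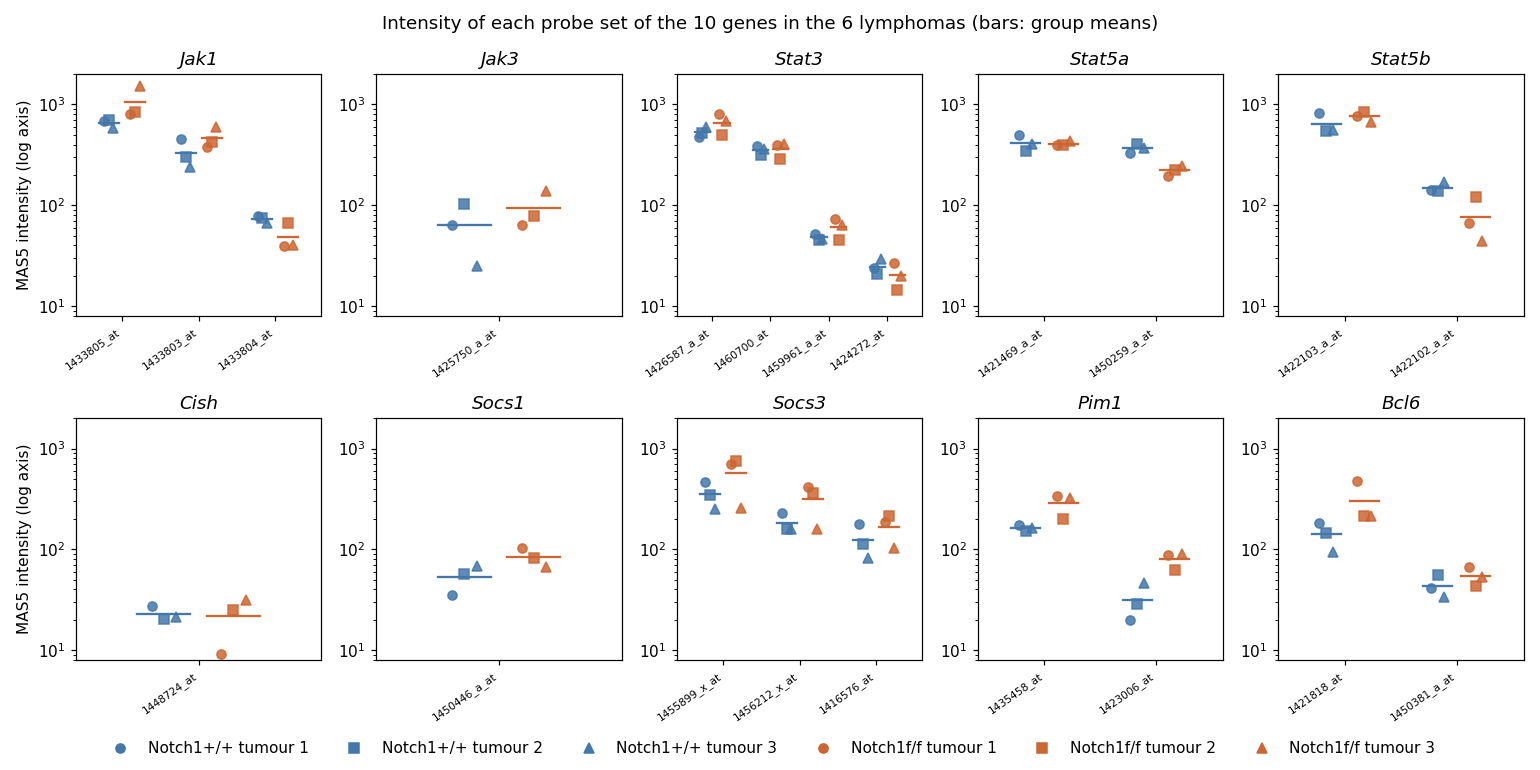
MAS5 intensity (log axis) of every probe set of the 10 genes in each of the 3 Notch1+/+ (blue) and 3 Notch1f/f (orange) lymphomas, with a bar at each group mean. Both Pim1 probe sets, the brighter Bcl6 and the brightest Jak1 probe set have every Notch1f/f point above every Notch1+/+ point. The reverse is seen for 1 probe set each of Stat5a and Stat5b.

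Pim1 had the largest difference of the 10 genes, and its 2 probe sets went the same way. It encodes a serine/threonine kinase that STAT proteins induce and that promotes the survival of lymphoid cells. On 1435458_at its intensities were 340, 200.1 and 319.5 in Notch1f/f tumours 1, 2 and 3, and 175.7, 151.1 and 162.9 in Notch1+/+ tumours 1, 2 and 3. The Notch1+/+ tumours lay close together, and Notch1f/f tumour 2 lay nearest to them. The mean was 287 ± 75.6 (SD, n = 3) against 163 ± 12.3, a log2 difference of 0.72 ± 0.25 (SE), with a 95% interval of 0.16 to 1.29 and an adjusted p of 0.297 in limma.

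On the dimmer Pim1 probe set, 1423006_at, the Notch1f/f tumours had 87.6, 61.8 and 89.5 and the Notch1+/+ tumours 19.8, 28.9 and 46. Here too the groups did not overlap, and Notch1f/f tumour 2 was again the lowest of its group. The difference was 1.03 ± 0.28, with a 95% interval of 0.39 to 1.67 (limma adjusted p = 0.262), a fold of 2.04. With a pseudocount of 64 in place of 16 it was 0.59. Without Notch1f/f tumour 2 the differences were 0.95 and 1.17, with adjusted p-values of 0.0981 and 0.120. The exact two-sided permutation test over the 6 tumours gave 0.1 for both, which is the smallest p that 3 against 3 tumours allow.

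Bcl6, a zinc finger repressor best known from germinal centre B cells and follicular helper T cells, was read by 2 probe sets that differed in size of effect. On the brighter, 1421818_at, the Notch1f/f tumours had 475.3, 214.8 and 214.7, and the Notch1+/+ tumours 183, 146.1 and 94.7. Every Notch1f/f value exceeded every Notch1+/+ value, and Notch1f/f tumour 1 stood well above the other two of its group. The difference was 0.96 ± 0.35, with a 95% interval of 0.17 to 1.75 (limma adjusted p = 0.311), and 0.59 without Notch1f/f tumour 1 (adjusted p = 0.619).

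The dimmer Bcl6 probe set, 1450381_a_at, had 67.4, 43 and 53 against 41.6, 55.4 and 33.8. These ranges overlapped, and the difference was 0.24 ± 0.26 (95% interval -0.34 to 0.83). With Notch1+/+ tumour 3 left out it was 0.12, with Notch1f/f tumour 1 left out 0.11, and with Notch1+/+ tumour 2 left out 0.38. Bcl6 is also a B cell gene. Of the 6 B cell markers, Cd79b had 37, 64.8 and 52.1 against 7.6, 26.4 and 18.7, and Cd79a had 15, 12.1 and 121.4 against 7.3, 6.7 and 9.8. Blk ranged from 2.3 to 151.3 with overlapping groups, and the other 3 were under 30 throughout. The part of B cells in the Bcl6 signal was not tested.

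Of the 3 inhibitors, Socs3 split the Notch1f/f tumours, with 2 high and 1 low. Socs3 binds to receptors that carry the gp130 chain and blocks JAK activity there. Its brightest probe set, 1455899_x_at, had 709.7 and 758.5 in Notch1f/f tumours 1 and 2 but 256.1 in tumour 3, against 465.8, 347.3 and 252.7 in the Notch1+/+ tumours. The other probe sets showed the same split. On 1456212_x_at the Notch1f/f tumours had 416.1, 363.2 and 158, and on 1416576_at 185, 213.2 and 103.4.

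Notch1f/f tumour 3 thus lay within or just below the Notch1+/+ range on all 3 Socs3 probe sets. On 1456212_x_at that range was 158.6 to 231, and on 1416576_at it was 81.8 to 176.5. The differences were 0.57 ± 0.40, 0.64 ± 0.35 and 0.40 ± 0.34, with adjusted p-values in limma of 0.549, 0.445 and 0.619. Without Notch1f/f tumour 3 they were 1.05, 1.04 and 0.68, with adjusted p-values of 0.458, 0.422 and 0.585. They were smaller without Notch1f/f tumour 1, at 0.35, 0.39 and 0.30, without Notch1f/f tumour 2, at 0.30, 0.48 and 0.21, and without Notch1+/+ tumour 3, at 0.35, 0.56 and 0.17. Without Notch1+/+ tumour 1 they were 0.78, 0.80 and 0.66. Notch1f/f tumour 3 had the highest sums of macrophage markers, at 2837.5, and of immediate-early and heat shock genes, at 8656.6. Its Socs3 values were the lowest of the Notch1f/f group. This is 1 tumour, and the part of macrophages or of tissue handling in the Socs3 signal was not tested.

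Socs1, which inhibits the JAK kinases directly and restrains interleukin-7 and interferon signalling in thymocytes, was read by 1 probe set. Its intensities were 102.4, 82 and 66.1 in the Notch1f/f tumours and 34.8, 56.6 and 67.6 in the Notch1+/+ tumours. Notch1f/f tumour 3 and Notch1+/+ tumour 3 overlapped, and the difference was 0.54 ± 0.28 (95% interval -0.09 to 1.18, limma adjusted p = 0.420). It was 0.34 without Notch1+/+ tumour 1, which had the lowest value.

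Cish encodes CIS, an inhibitor that Stat5 induces and that is often used as a readout of Stat5 activity. It was dim in all tumours and showed no consistent direction, with 9.2, 24.9 and 31.5 in the Notch1f/f and 27.6, 20.2 and 21.1 in the Notch1+/+ tumours. The lowest and the highest value both belonged to the Notch1f/f group. The difference was -0.09 ± 0.27 (95% interval -0.69 to 0.52, limma adjusted p = 0.905), and 0.18 without Notch1f/f tumour 1. This interval does not exclude a change of 0.5 in either direction on this scale.

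Promoter sequence was searched for TTCNNNGAA, the palindrome that STAT dimers bind, in windows from 250 bases before to 50 bases after each annotated start (RefSeq, GRCm38.p6). All 10 genes had at least 1 window, 14 in all. The palindrome occurred in 4 of the 14 windows, in Cish, Socs3 and Bcl6, and in 8.30% of all 32851 windows. Counted by gene, it was in 3 of the 10 and in 9.55% of all 27025 genes. As it reads the same on both strands, each match counts once. The windows are printed 5′ to 3′ on the strand of the gene, with the matches in capitals, up to the annotated start, and for Cish 30 bases beyond it. They are shown as the windows of the 10 genes that hold the palindrome, all of them in genes that cytokines induce.

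Cish, GRCm38.p6 chr9:107296409-107296688, plus strand: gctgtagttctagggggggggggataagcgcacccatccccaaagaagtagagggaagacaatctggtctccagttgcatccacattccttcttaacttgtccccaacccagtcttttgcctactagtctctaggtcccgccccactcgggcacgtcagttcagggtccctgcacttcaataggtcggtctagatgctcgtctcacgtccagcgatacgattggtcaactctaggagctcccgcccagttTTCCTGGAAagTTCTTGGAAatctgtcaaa
Socs3, GRCm38.p6 chr11:117969367-117969616, minus strand: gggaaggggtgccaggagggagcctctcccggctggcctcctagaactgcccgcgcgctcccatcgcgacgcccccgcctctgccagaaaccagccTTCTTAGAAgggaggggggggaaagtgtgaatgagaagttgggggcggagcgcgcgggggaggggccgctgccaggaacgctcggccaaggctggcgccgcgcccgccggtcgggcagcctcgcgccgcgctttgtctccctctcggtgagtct
Bcl6, upstream start, GRCm38.p6 chr16:23988853-23989102, minus strand: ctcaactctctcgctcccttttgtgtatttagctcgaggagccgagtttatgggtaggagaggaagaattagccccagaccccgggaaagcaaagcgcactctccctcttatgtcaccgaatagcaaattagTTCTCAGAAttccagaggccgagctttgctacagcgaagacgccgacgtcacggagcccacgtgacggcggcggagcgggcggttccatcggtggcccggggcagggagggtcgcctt
Bcl6, downstream start, GRCm38.p6 chr16:23981284-23981533, minus strand: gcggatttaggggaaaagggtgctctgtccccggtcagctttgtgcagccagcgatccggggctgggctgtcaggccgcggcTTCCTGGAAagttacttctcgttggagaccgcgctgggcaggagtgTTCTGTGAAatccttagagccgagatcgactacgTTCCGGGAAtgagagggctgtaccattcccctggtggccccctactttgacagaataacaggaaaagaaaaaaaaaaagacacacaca

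Cish held 2 copies, the first beginning at the annotated start itself and the other 11 bases beyond it. Socs3 held 1 copy, beginning 154 bases before the start. Bcl6 held 1 copy at its upstream start, 118 bases before it, and 3 at its downstream start, 168, 122 and 88 bases before it. The Pim1 and Socs1 windows held none. The form with 4 bases between TTC and GAA, which Stat6 prefers, was in none of the 14 windows and in 6.95% of all. TGGGAA, the core bound by the Notch partner CSL, was in 1 of the 14, that of Socs1, and in 25.6% of all. A match is a description of the letters and not evidence of binding, and no match says only that these letters are not in the window.

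Both Stat5 genes had probe sets that disagreed. Stat5a and Stat5b encode near-identical transcription factors downstream of interleukin-2 and interleukin-7, and they lie side by side on chromosome 11, with Stat3 next to Stat5a. On the Stat5a probe set 1450259_a_at the Notch1f/f tumours had 193.2, 225.1 and 245.7 and the Notch1+/+ tumours 329.2, 400.7 and 371.8. Both groups were tight and did not overlap. The mean was 221 ± 26.5 against 367 ± 36.0, a difference of -0.69 ± 0.21 (95% interval -1.16 to -0.23, limma adjusted p = 0.281).

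The other Stat5a probe set, 1421469_a_at, had 392.2, 397.8 and 438.7 against 493.8, 342.4 and 405.8, and its difference was -0.0016 ± 0.21 (95% interval -0.47 to 0.46). The log2 difference between the 2 probe sets within an array was -0.96 to -0.78 in the Notch1f/f and -0.56 to 0.22 in the Notch1+/+ tumours. The signals of the 2 probe sets therefore changed unequally between the groups, and which transcripts each one reads was not looked up.

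Stat5b showed the same kind of disagreement. On 1422102_a_at the Notch1f/f tumours had 66.4, 119.7 and 44 and the Notch1+/+ tumours 140.5, 137.4 and 169.8. All Notch1f/f tumours were lower, with tumour 2 close to the Notch1+/+ range and tumour 3 lowest. The difference was -0.91 ± 0.32 (95% interval -1.63 to -0.20, limma adjusted p = 0.298), and -1.23 without Notch1f/f tumour 2 (adjusted p = 0.0893).

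The brighter Stat5b probe set, 1422103_a_at, had 767.8, 838.1 and 677.2 against 814.8, 549.7 and 560.4, which overlapped. Its difference was 0.26 ± 0.21 (95% interval -0.22 to 0.73), with 0.44 without Notch1+/+ tumour 1 and 0.16 without Notch1+/+ tumour 2. Within an array the first of these minus the second was -3.53 to -2.65 in the Notch1f/f and -2.41 to -1.63 in the Notch1+/+ tumours. No direction can therefore be given for Stat5a or Stat5b as genes.

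Stat3, which transmits signals of the interleukin-6 family, interleukin-10 and interleukin-21, had 4 probe sets and overlapping groups on each. On the brightest, 1426587_a_at, the Notch1f/f tumours had 805.5, 499.4 and 681 and the Notch1+/+ tumours 472.7, 515.7 and 594. Notch1f/f tumours 1 and 3 were above the Notch1+/+ range and tumour 2 was inside it. The difference was 0.30 ± 0.22 (95% interval -0.20 to 0.80, limma adjusted p = 0.565). Leaving out Notch1f/f tumour 1 gave 0.15, and leaving out tumour 2 of that group gave 0.48. The other 3 probe sets, 1460700_at, 1459961_a_at and 1424272_at, had differences of 0.03, 0.24 and -0.17, and the first of these turned negative when Notch1+/+ tumour 2 or Notch1f/f tumour 1 or 3 was left out, at -0.06, -0.04 and -0.06.

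Jak1, the kinase that pairs with most cytokine receptors of T cells, had 3 probe sets of which one went the other way. On the brightest, 1433805_at, the Notch1f/f tumours had 802.8, 838.2 and 1542.7 and the Notch1+/+ tumours 688, 703.5 and 585.3. The groups did not overlap, and Notch1f/f tumour 3 stood far above the rest. The difference was 0.61 ± 0.26 (95% interval 0.03 to 1.20, limma adjusted p = 0.353), and 0.31 without this tumour (adjusted p = 0.655).

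On 1433803_at Jak1 had 375.4, 422.3 and 597.3 against 455.2, 301.9 and 237.6, a difference of 0.49 ± 0.28 with overlapping groups. With Notch1+/+ tumour 3 left out it was 0.29, with Notch1f/f tumour 3 left out 0.30, and with Notch1+/+ tumour 1 left out 0.73. Notch1f/f tumour 3 was the highest here as well. The dimmest probe set, 1433804_at, had 39, 66.3 and 40.3 against 78.3, 74.4 and 66.3, so that Notch1f/f tumours 1 and 3 lay below the Notch1+/+ range and tumour 2 met its lower end. Its difference was -0.49 ± 0.26 (95% interval -1.06 to 0.09). Within an array 1433804_at minus 1433805_at was -4.79 to -3.38 in the Notch1f/f and -2.99 to -2.87 in the Notch1+/+ tumours, with no overlap between the groups.

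Jak3, which binds the common gamma chain of the receptors for interleukin-2, interleukin-4, interleukin-7 and others, was read by 1 probe set with its symbol alone. Its intensities were 64, 77.9 and 138.3 in the Notch1f/f and 63.7, 103.3 and 24.9 in the Notch1+/+ tumours. The spread within each group was as large as the difference between them, which was 0.53 ± 0.41 (95% interval -0.41 to 1.46, limma adjusted p = 0.590). Leaving out Notch1+/+ tumour 3, the lowest, gave 0.11, leaving out Notch1f/f tumour 3 gave 0.25, and leaving out Notch1+/+ tumour 2 gave 0.88.

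**Figure D2:**
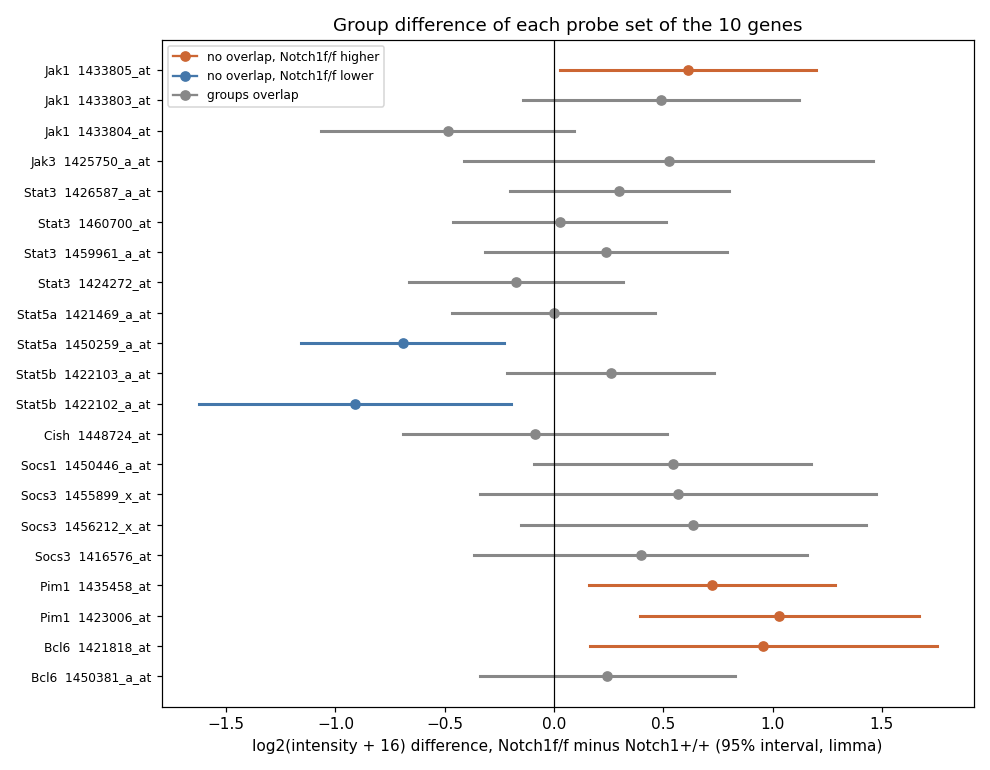
Difference between the group means of log2(intensity + 16), Notch1f/f minus Notch1+/+, with its 95% interval from limma, for the 21 probe sets of the 10 genes. Orange and blue mark groups that did not overlap. The intervals of 6 probe sets leave out 0, from -0.91 for Stat5b to 1.03 for Pim1, and none passed after adjustment over all probe sets.

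Across the 10 genes the tumours did not rank in 1 order. Notch1f/f tumour 1 had the highest value of the 6 tumours on 7 of the 21 probe sets, among them the brighter Bcl6 and Pim1 probe sets, and tumour 3 on 6, among them both Jak1 probe sets that were higher. Notch1+/+ tumour 3 had the lowest value on 7. Notch1f/f tumour 2 was highest on 3, of which 2 were Socs3 probe sets and one the brighter Stat5b probe set. The tumour with the highest Jak1 on those 2 probe sets thus had the lowest Socs3 of its group. The Notch1+/+ group did not show this. Its tumour 3 had the lowest Jak1 of the group on both, and the lowest Socs3 on 1455899_x_at and 1416576_at.

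**Figure D3:**
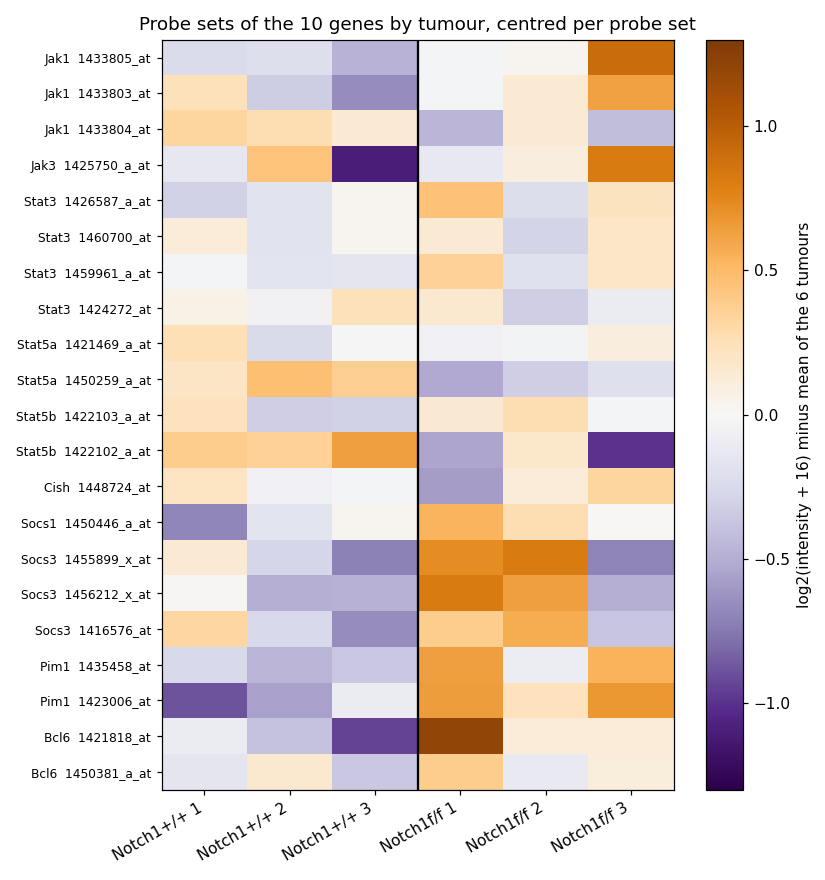
Log2(intensity + 16) of the 21 probe sets minus the mean of the 6 tumours, 1 row per probe set and 1 column per tumour, with a line between the genotypes. Socs3 is high in Notch1f/f tumours 1 and 2 and low in tumour 3 on all 3 probe sets, while Jak1 1433805_at peaks in tumour 3 and Bcl6 1421818_at in tumour 1.

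The rest of the pathway was followed in a list of 75 other genes, of which 72 had a probe set and 59 had at least 1 that was bright enough to test. None of their 134 tested probe sets passed the threshold, and the lowest adjusted p in limma was 0.119. Without adjustment 15 were higher and 8 lower at a p under 0.05, or 11.2% and 5.97%, against 5.94% and 7.6% of all tested probe sets. The groups did not overlap in 29 of the 134, of which 20 were higher and 9 lower, a share of 21.6% against 18.6% of all tested. The median difference was 0.09. The list was drawn up with earlier results of these tumours known.

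Of the other kinases and STATs, 5 genes were tested on 9 probe sets, of which 2 were higher with no overlap, or 22.2%, against 8.13% of all tested, and 0 were lower. Tyk2, the kinase of interferon and interleukin-12 receptors, had 140.6, 98.2 and 104.1 against 85.8, 75.8 and 92.1 on its brighter probe set, with no overlap. The difference was 0.36 (limma adjusted p = 0.522). The 2 Jak2 probe sets had differences of 0.40 and -0.08, and the 2 of Stat6, which transmits interleukin-4 signals, -0.57 and -0.19.

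The 17 other inhibitors and adaptors were all tested, on 49 probe sets. Of these, 2 were higher and 4 lower with no overlap, or 4.08% and 8.16%, against 8.13% and 10.4% of all tested. Socs4 and Stam2 had the smallest p-values. Socs4 had 17.7, 16.1 and 14.9 against 81.9, 36.8 and 31.5 on 1421275_s_at, a difference of -0.96 (limma adjusted p = 0.290). Its 3 other probe sets overlapped, with differences of -0.05, -0.23 and -0.44. Stam2, an adaptor in the sorting of receptors, had 20.4, 22.4 and 21.7 against 48.6, 38.9 and 43 on 1416975_at, a difference of -0.66 (adjusted p = 0.291). Its 4 other tested probe sets overlapped and differed in direction, at 0.32, 0.26, -0.27 and -0.06. Socs2, another Stat5-induced inhibitor, reached at most 18.8 on any of its 6 probe sets, so it was dim like Cish.

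Of the receptors, 21 genes were tested on 37 probe sets, of which 6 were higher and 1 lower with no overlap, or 16.2% and 2.70%, against 8.13% and 10.4% of all tested. Il2ra varied widely within each group, and Il7r within the Notch1+/+ group. Il7r, the interleukin-7 receptor, had 170.7, 277.7 and 195.9 in the Notch1f/f tumours and 86.8, 495.1 and 598.9 in the Notch1+/+ tumours on 1448575_at, a difference of -0.49 (limma adjusted p = 0.733). Il2ra, the high-affinity chain of the interleukin-2 receptor and itself a Stat5 target, had 1263.1, 1302.7 and 333.4 against 231.9, 739.8 and 1850.7 on 1420692_at. In both genes Notch1+/+ tumour 1 was the lowest of all 6 tumours and Notch1+/+ tumour 3 the highest. In the Notch1f/f group Il2ra was low in tumour 3, the tumour with low Socs3. The Notch1+/+ group went the other way. There tumour 1, with the lowest Il2ra, had the highest Socs3 on 1455899_x_at, at 465.8, and tumour 3, with the highest Il2ra, the lowest, at 252.7.

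Il4ra, the chain of the interleukin-4 receptor that recruits Stat6, had 63.6, 39.9 and 49.9 against 28, 33.3 and 20.4 on 1421034_a_at, with no overlap and a difference of 0.63 (limma adjusted p = 0.332). Its other 2 probe sets overlapped, at -0.02 and 0.15. Csf2rb, the shared chain of receptors for interleukin-3, interleukin-5 and GM-CSF and mainly a myeloid gene, had 20.1, 15.2 and 18.8 against 0.8, 1.1 and 6.1 on 1421326_at, a difference of 0.88 (adjusted p = 0.180). Its brighter probe set, 1455660_at, had 59.9, 41.2 and 71.9 against 7.1, 26 and 39.1, with no overlap and a difference of 0.95 (adjusted p = 0.308). Il6ra had 19.4, 13.5 and 18.3 against 2.5, 2.8 and 9.8 on 1422270_a_at, a difference of 0.67 (adjusted p = 0.280). Both Csf2rb and Il6ra are expressed by macrophages, and the macrophage marker C1qb, a complement subunit, had 278.7, 235 and 472.7 against 20.4, 117.8 and 148.6 on 1417063_at. This was the largest difference among the 14 tested probe sets of macrophage markers, at 1.83. Of the 14, 11 were above 0 and 3 below, those of Marco, Vsig4 and Adgre1, at -1.16, -0.51 and -0.19. The part of macrophages in the Csf2rb and Il6ra signals was not tested.

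Of 12 cytokine ligands, 10 had no probe set bright enough to test, among them Il2, Il4, Il6, Il7, Il15, Il21 and Ifng. Il10 and Osm were tested. Il10 ranged from 23.5 to 428.5 over the tumours on 1450330_at, with a difference of 1.51 and overlapping groups (limma adjusted p = 0.367). Osm, a STAT-induced cytokine of the interleukin-6 family, had 42.8, 44.2 and 39.6 against 30.8, 32.2 and 37.3, with no overlap and a difference of 0.24 (adjusted p = 0.648).

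Of the other genes that cytokines induce, 14 were tested on 37 probe sets, 24 with a difference above 0 and 13 below, and none passed the threshold. The groups did not overlap in 9 higher and 4 lower probe sets, or 24.3% and 10.8%, against 8.13% and 10.4% of all tested. Of these 13, 6 read Mcl1 and 3 read Ccnd1. Mcl1, a survival gene of the Bcl2 family, was higher with no overlap on 5 of its 6 probe sets and lower with no overlap on the other. On 1456243_x_at it had 1036.1, 835 and 1120.6 against 675.7, 599.6 and 617.3, a difference of 0.64 (limma adjusted p = 0.274), while on 1416881_at the difference was -0.35 (0.476). Ccnd1, the D-type cyclin that drives entry into the cell cycle, was lower on all 3 of its tested probe sets. On 1417419_at it had 1.7, 13.2 and 4.8 against 58.3, 193.6 and 71.8, a difference of -2.33 (adjusted p = 0.119), the lowest adjusted p of the list. The differences of the others were -2.08 and -2.22. All 8 tested probe sets of fibroblast markers were also below 0, with a median of -0.68 and overlapping groups on each. The summed intensity of the 7 fibroblast markers overlapped, at 868.3 to 1951.1 in the Notch1f/f and 1400.8 to 2552.2 in the Notch1+/+ tumours. In every tumour most of this sum was Pdgfrb, at 813, 1029.4 and 1827.1 against 1976.2, 1282.4 and 1103.4, so the sum mainly follows that gene. Its difference was -0.29 on this probe set. On the brightest probe sets of Col1a2, Col3a1, Col1a1, Dcn and Lum the differences were -2.21, -1.53, -0.87, -0.36 and -0.10. The part of host cells in the Ccnd1 signal was not tested.

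The other Pim kinases did not follow Pim1 in size. Pim2 had 63.1, 70.6 and 82.5 against 52.3, 61.4 and 62.3, with no overlap by a narrow margin and a difference of 0.23 (limma adjusted p = 0.674). The 2 tested probe sets of Pim3 had differences of -0.24 and -0.26 and overlapping groups. Whether Pim1 differed from Pim2 or Pim3 in its change was not tested.

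**Figure D4:**
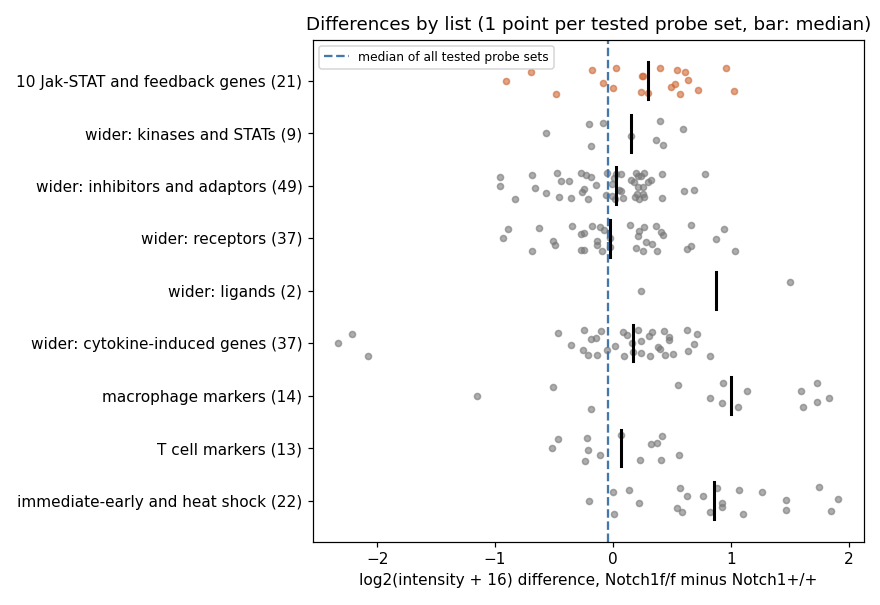
Difference between the group means of log2(intensity + 16), Notch1f/f minus Notch1+/+, with 1 point per tested probe set, for the 10 genes, the other pathway genes by role, and marker lists. Bars are medians and the dashed line is the median of all tested probe sets, -0.04. The 10 genes have a median of 0.30, macrophage markers 1.00 and immediate-early and heat shock genes 0.85, and the 3 Ccnd1 probe sets lie at the far left.

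The probe sets closest to 4 of the 10 genes over the 6 tumours were found by the root mean square difference of log2 values, each centred on its own mean. For Pim1 (1435458_at) these were Cdip1, at 0.05, Zranb1, at 0.06, and Mdrl, at 0.07. For Bcl6 (1421818_at) they were Bmt2, Diaph1 and Relch, at 0.13 to 0.15. For Socs3 (1455899_x_at) they were Zfp763, at 0.06, and Phxr4 and Satb1, at 0.17 and 0.19. For Cish they were Dzip3, Phb2 and Prim1, at 0.06 to 0.07. No other gene of the pathway was among these 12, and with 27022 probe sets and 6 tumours such closeness is a description only.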

How the data were processed

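RNA of 6 lymphomas, 3 per genotype, was hybridised to Affymetrix arrays. The authors deposited 1 signal intensity per probe set, computed with MAS5 per the submitters' processing notes (version not given in the sources used here). The mean of the middle of each array's values, without 2% at each end, was 100, so arrays had been scaled to a common target. Detection calls were not used. Symbols came from a platform annotation, and 21 probe sets had exactly 1 of the 10 symbols. Probe sets with several symbols, such as those shared by Jak3 and Insl3, were not used.

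Intensities were transformed as log2(intensity + 16). Controls and probe sets with a mean under the 40th percentile (an intensity of 7.60) were left out. Groups were compared over 27022 probe sets in limma 3.58.1 (R 4.3.3; lmFit, then eBayes with a mean-variance trend), without covariates, two-sided, with Benjamini-Hochberg adjustment. The fit was tested on simulated data. Figures used matplotlib 3.10.9.

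The labels do not pair the tumours, and each came from its own mouse. The genes and lists were chosen with earlier results of these data known. All 10 genes are named with every probe set. Of the wider list, the 10 probe sets with the smallest p-values and 11 fixed genes are named, except any not analysed here. Genes close to Cish, Socs3, Pim1 and Bcl6 are the 3 nearest probe sets each. Il10, Osm, C1qb, Marco, Vsig4, Adgre1, Cd3e, Cd79a, Cd79b, Blk, Mcl1, Ccnd1 and the fibroblast genes were named after their values were seen. Alternatives were another pseudocount (1 or 64), a filter at the 60th percentile or none, median centring, quantile normalisation, no trend, array weights, each tumour left out, and a threshold of 0.10.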

Additional observations from a re-analysis of the deposited data

How the results depend on the processing

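The count of probe sets of the 10 genes past the threshold was 0 in all 15 alternatives to the main settings, and so was the count for the wider pathway list. The median difference of the 10 genes stayed above 0, between 0.18 without Notch1+/+ tumour 3 and 0.40 with the filter at the 60th percentile. That filter left 19 of the 21 probe sets. It dropped Cish and Stat3 1424272_at, both below 0 in the main settings. Of 313 values of single probe sets under the alternatives, 303 kept their direction and 10 turned it, all from probe sets near 0. Another threshold, another filter or no trend leaves the difference of a probe set as it was. Values under these alternatives repeat the main ones, could not turn, and are counted among the 303. Only the other alternatives test the direction. Stat5a 1421469_a_at turned to 0.044 with median centring and 0.079 with array weights, and ranged from -0.13 to 0.13 with each tumour left out, above 0 without Notch1+/+ tumour 1 or Notch1f/f tumour 1 or 2. Cish turned to 0.0075 with quantile normalisation, and ranged from -0.27 to 0.18 with each tumour left out, above 0 without Notch1f/f tumour 1 alone. Stat3 1460700_at ranged from -0.060 to 0.18 with each tumour left out, below 0 without Notch1+/+ tumour 2 or Notch1f/f tumour 1 or 3. The cause was not tested. No paired analysis was possible because the labels give no numbers that pair the tumours. With 3 arrays per group even the narrowest of the 95% intervals, for Stat5a 1450259_a_at, ran from -1.16 to -0.23.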
